A study of Mus musculus with 15 samples.

Results

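The Rab genes encode small GTPases that direct membrane vesicles between the compartments of a cell. Their RNA was followed here on 15 one-colour microarrays of sorted mouse liver macrophages. Members were taken by symbol, as Rab followed by a number and at most 2 further letters or digits, which matched 63 genes. Of these, 59 encode Rab GTPases and 4 do not (Rab3ip, Rab5if and the noncoding RNAs Rab10os and Rab26os). A total of 51 Rab GTPase genes were measured, among 13390 genes measured in all. Of the remaining GTPase genes, Rab25, Rab26, Rab27b, Rab39b, Rab40b and Rab9b had no probe that passed the filter on dim probes (signal well above background on 4 or more of the 5 arrays in 1 group or more), and no probe was named for Rab36 and Rab44.

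A Rab protein is anchored in a membrane by prenyl groups and works as a switch. Exchange factors load it with GTP, and the loaded form recruits effectors that tether, move or fuse the vesicle. GTPase-activating proteins return it to the GDP form, which is taken off the membrane and recycled. In macrophages, successive Rab proteins mark the early endosome, the late endosome and the maturing phagosome, and others serve the Golgi, the recycling of receptors and secretion.

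The cells were male liver macrophages with high F4/80, a macrophage surface protein, sorted by CD11c, an integrin found on dendritic cells and some macrophages. The group WT_SD held CD11c-negative cells of wildtype mice on standard diet. The groups MC4R_WD CD11c-negative and MC4R_WD CD11c-positive came from MC4R-KO mice, which lack the melanocortin 4 receptor, after 20 weeks of Western diet begun at 8 weeks of age. The labels give these livers as NASH, nonalcoholic steatohepatitis, and the groups are called wildtype, NASH CD11c-negative and NASH CD11c-positive below. Each group had 5 arrays, each from RNA pooled from 7 to 9 mice. The labels do not say whether the arrays of a group, or the 2 NASH sorts, came from separate pools, so the p-values cover the variation among these arrays alone, and part of it may be technical. No age is stated for wildtype. Genotype and diet differed together between wildtype and NASH and cannot be told apart. There was no wildtype CD11c-positive group, so NASH CD11c-positive and wildtype cells differed in the CD11c sort as well. The 3 comparisons share groups with each other.

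A level below is the log2 signal of a probe relative to the 75th percentile of its array, and a difference is between group means on that log2 scale, with its standard error (SE). A gene rose or fell when its limma test had a Benjamini-Hochberg adjusted p under 0.05 over all 13390 genes. The sort was checked on Itgax, which encodes CD11c. Its mean level was 4.21 in wildtype, 5.93 in NASH CD11c-negative and 7.29 in NASH CD11c-positive cells, so the CD11c-negative NASH cells carried more Itgax RNA than the wildtype cells. Adgre1, which encodes F4/80, lay at 7.34, 7.74 and 7.31. The single Mc4r probe was not above background on any array and does not check the genotype. The arrays lay on 2 slides, each holding arrays of all 3 groups, and 45.8% to 58.0% of spots on an array were well above background. Over the 51 Rab genes, the median SD within a group was 0.066 in wildtype, 0.076 in NASH CD11c-negative and 0.059 in NASH CD11c-positive cells.

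Markers of other cell types moved with the groups. Of all genes, 48.3% rose and 28.5% fell in NASH CD11c-negative against wildtype cells. From there to NASH CD11c-positive cells 29.9% rose and 23.2% fell, and the marker counts are to be read beside these shares. Of 11 neutrophil markers, 10 rose in NASH CD11c-negative against wildtype cells and 10 fell in NASH CD11c-positive against NASH CD11c-negative cells, and their log2 summed level ranged from 8.69 to 8.76, from 10.63 to 10.76 and from 9.33 to 9.40 in wildtype, NASH CD11c-negative and NASH CD11c-positive arrays. Of 9 conventional dendritic cell markers, 8 fell in the first of these comparisons and 8 rose in the second, with summed levels of 6.34 to 6.50, 5.49 to 5.67 and 6.72 to 6.85, and none of the 5 NASH CD11c-negative arrays had Xcr1 well above background. Of 10 sinusoidal endothelial markers, 9 fell at each of these steps (8.60 to 8.73, then 7.85 to 7.94, then 7.23 to 7.28), and 6 of 8 hepatocyte markers fell at each (5.17 to 5.33, then 4.17 to 4.30, then 3.97 to 4.08). Of 8 macrophage and Kupffer cell markers, 6 fell in NASH CD11c-negative against wildtype cells and all 8 fell from there to the NASH CD11c-positive cells (11.54 to 11.68, then 11.09 to 11.21, then 10.72 to 10.85). Of 8 monocyte markers, 6 rose and then 6 fell (8.36 to 8.42, then 9.04 to 9.10, then 8.78 to 8.88). Of 8 natural killer cell markers, 6 fell and then 5 rose (3.13 to 3.21, then 1.65 to 1.77, then 2.44 to 2.49). Of 9 T cell markers, 7 fell and then 6 rose, with summed levels of 5.17 to 5.24, 4.40 to 4.72 and 4.38 to 4.60. Of 6 B cell and plasma cell markers, 5 fell and then 2 fell (5.89 to 6.07, then 5.25 to 5.50, then 4.48 to 4.65). Of 4 platelet markers, 3 rose and then 3 fell (5.29 to 5.40, then 6.58 to 6.73, then 6.04 to 6.12). Of 4 mast cell, basophil and eosinophil markers, 2 rose and 2 fell, then 1 rose and 3 fell. Their summed levels were 0.82 to 0.95, 1.63 to 1.78 and 2.76 to 2.93, and no NASH array had Cpa3 well above background. Of 6 plasmacytoid dendritic cell markers, 2 rose and 4 fell, then 2 rose and 2 fell. Of 5 stellate cell markers, 3 rose and 1 fell, then 1 rose and 2 fell. The part of these cell types in the Rab differences was not tested. Fewer cells of a type and less RNA per cell cannot be told apart in sorted bulk samples.

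In NASH CD11c-negative against wildtype macrophages, most Rab genes moved a little and a few moved far. Of the 51 Rab genes, 31 rose (60.8%, beside 48.3% of all genes) and 12 fell (23.5%, beside 28.5%). The recycling gene Rab4a and the Golgi gene Rab6b had the largest falls, and Rab38 had the largest rise among genes well above background in both groups. Rab15 differed by a like amount, but it passed the filter on dim probes only through the NASH arrays. The share that changed was 84.3%, beside 76.8% of all genes tested, so a change as such does not set the Rab genes apart. The median difference was 0.24 over Rab genes and 0.13 over all genes, and the median size of a difference was 0.41 and 0.35. At least 2-fold rises were seen for 2 Rab genes (3.92%, beside 5.18% of all genes) and at least 2-fold falls for 4 (7.84%, beside 6.22%). The values of both groups did not overlap for 37 of the 51 (72.5%, beside 64.1%).

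The comparison of both NASH sorts showed smaller differences. In NASH CD11c-positive against NASH CD11c-negative cells, 12 Rab genes rose (23.5%, beside 29.9% of all genes) and 13 fell (25.5%, beside 23.2%), together 49.0% beside 53.1%. Rab30 alone changed at least 2-fold (1.96%, beside 2.85%). The median size of a difference was 0.10 for Rab genes and 0.17 for all genes, and 16 Rab genes did not overlap between these groups (31.4%, beside 39.5%). In NASH CD11c-positive against wildtype cells, 32 Rab genes rose (62.7%, beside 51.4% of all genes) and 13 fell (25.5%, beside 26.3%), together 88.2% beside 77.6%. At least 2-fold, 3 rose (5.88%, beside 6.65%) and 4 fell (7.84%, beside 7.02%), and 41 did not overlap (80.4%, beside 69.3%).

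**Figure D1:**
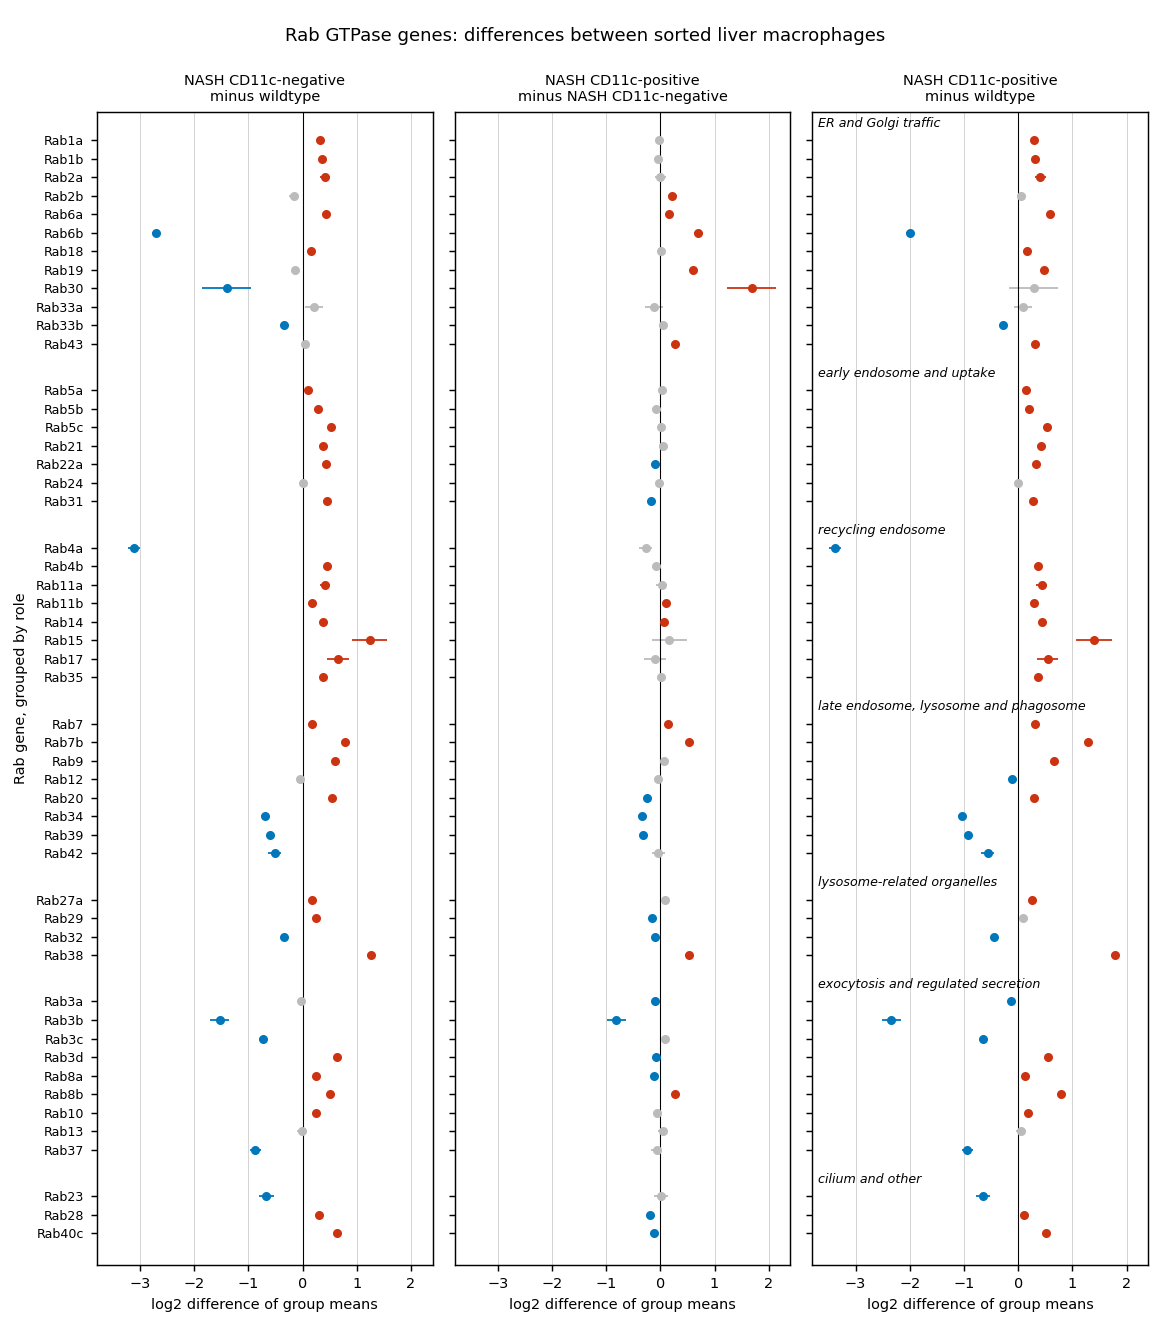
Log2 difference of group means (points) with its SE (bars) for the 51 measured Rab genes, grouped by role, in the 3 comparisons. Red genes rose, blue genes fell and grey genes did not pass the adjusted p threshold. Rab4a (-3.11) and Rab6b (-2.70) lie far to the left of the other genes in the first panel, and most other differences are within 1 log2 unit of 0.

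The direction of many small rises depended on how the arrays were scaled. With quantile normalization, which gives every array the same distribution, the median difference of all genes between NASH CD11c-negative and wildtype cells moved from 0.13 to 0.00, and the share of rises among all calls from 62.9% to 49.0%. The Rab genes then counted 19 rises and 22 falls. All 12 Rab genes that fell also fell under quantile normalization. Of the 31 that rose, 19 kept the call, 4 lost it (Rab11a, Rab1b, Rab35 and Rab5b) and 8 turned negative. In NASH CD11c-positive against wildtype cells, where the share of rises among all calls moved from 66.2% to 54.4%, the counts became 19 rises and 19 falls. All 13 falls were kept there, and of the 32 rises 19 were kept, 6 were lost (Rab11a, Rab1a, Rab1b, Rab28, Rab2a and Rab31) and 7 turned negative. Between both NASH sorts, all 12 rises and 12 of 13 falls were kept. With slide as a block, all 43, 25 and 45 Rab calls of the 3 comparisons were kept. On slide 1 alone 40, 17 and 41 of them were kept, and on slide 2 alone 41, 18 and 42, with fewer arrays per group. Quantile normalization moved the size of 21 of the 43, 2 of the 25 and 26 of the 45 called differences by more than 1.5 times, those that changed sign included.

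Background correction by normexp gave smaller differences for the 5 Rab genes with arrays near background in NASH CD11c-negative against wildtype cells. It gave 0.31 for Rab15, 0.28 for Rab17, -0.16 for Rab23, -0.43 for Rab30 and -0.14 for Rab42, all still called, and 0.85 (1.81-fold) for Rab38. Between both NASH sorts it gave 0.52 (1.44-fold) for Rab30, so no Rab gene that changed at least 2-fold there with the main processing did so with normexp. Of the 25 calls between the sorts, 6 were lost under normexp, those of Rab3a (-0.055), Rab3d (-0.069), Rab8a (-0.067), Rab22a (-0.076), Rab32 (-0.050) and Rab40c (-0.032). The calls of Rab5a and Rab27a in NASH CD11c-negative cells and of Rab12, Rab17 and Rab27a in NASH CD11c-positive cells against wildtype were lost too.

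**Figure D2:**
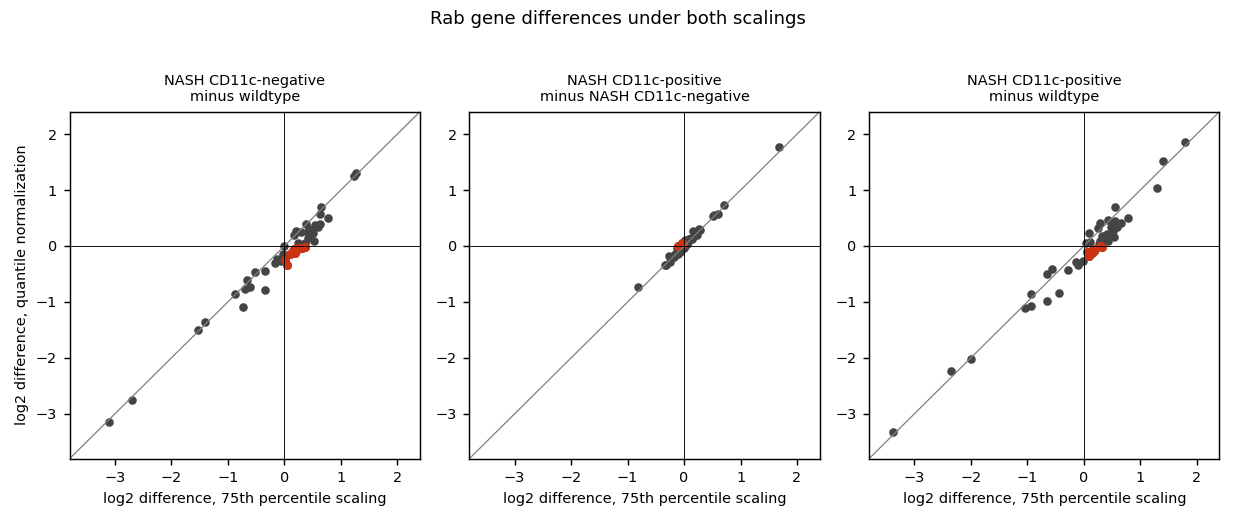
Log2 difference of each of the 51 Rab genes with 75th percentile scaling (x axis) and with quantile normalization (y axis) in the 3 comparisons, with the line of equality. Red genes have opposite signs under the scalings, which holds for 10, 3 and 9 genes from left to right, called or not, all with small differences, while the points of the large falls lie near the line.

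The 12 measured Rab genes of the endoplasmic reticulum and Golgi split into 5 that rose (41.7%, beside 48.3% of all genes), 3 that fell (25.0%, beside 28.5%) and 4 that did not pass in NASH CD11c-negative against wildtype cells. In NASH CD11c-positive against NASH CD11c-negative cells 6 rose (50%, beside 29.9%) and 0 fell (beside 23.2%). Rab6b, a Golgi Rab known from neurons, was the member that fell most. Its levels on the wildtype arrays were 1.08, 1.02, 0.95, 0.99 and 0.91. On the NASH CD11c-negative arrays they were -1.60, -1.47, -1.82, -1.87 and -1.78, and on the NASH CD11c-positive arrays -0.94, -0.82, -1.14, -1.08 and -1.06. All 5 wildtype arrays lay above every NASH array, and all NASH CD11c-positive arrays lay above every NASH CD11c-negative array. The difference was -2.70 (SE 0.077, a 6.50-fold fall, adjusted p = 2.53e-13) in NASH CD11c-negative against wildtype cells, and Rab6b rose by 0.70 from there to the CD11c-positive cells (adjusted p = 2.78e-06), or by 0.44 with normexp. On slide 1 alone the difference of NASH CD11c-negative cells from wildtype was -2.65, and on slide 2 alone -2.78. With normexp it was -2.13 (4.39-fold).

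Its close relative Rab6a, which carries vesicles from the Golgi back to the endoplasmic reticulum in most cells, rose by 0.44 (SE 0.057, adjusted p = 5.47e-06) and stood 0.59 above wildtype in the NASH CD11c-positive cells. Its step of 0.15 between the NASH sorts (adjusted p = 0.0348) was lost without replicate 1, 2, 3 or 5 of NASH CD11c-negative or 3, 4 or 5 of NASH CD11c-positive cells, with differences of 0.14 to 0.15, and also on slide 1 alone and without the filter on dim probes. Rab1a and Rab1b, which act between the endoplasmic reticulum and the Golgi, rose by 0.31 and 0.36 in NASH CD11c-negative against wildtype cells. Rab2a, which works in early Golgi traffic, rose by 0.41, whereas its relative Rab2b differed by -0.17 and did not pass (adjusted p = 0.0734). Rab18, known from lipid droplets, rose by 0.15 in NASH CD11c-negative and by 0.17 in NASH CD11c-positive against wildtype cells. Under quantile normalization Rab1a differed by -0.03 and Rab18 by -0.09 in the first of these comparisons, and Rab18 by -0.08 in the second.

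Rab30, a Rab of the Golgi stack, had uneven levels. On the wildtype arrays they were -2.05, -2.39, -2.29, -1.93 and -2.13. On the NASH CD11c-negative arrays they were -4.44, -2.14, -4.90, -4.14 and -2.20, and only the second and the fifth were well above background. On the NASH CD11c-positive arrays they were -1.94, -2.10, -1.88, -2.01 and -1.46. The NASH CD11c-negative group thus held 3 low arrays and a pair at the level of the wildtype arrays, with which it overlapped. Rab30 fell by 1.40 against wildtype (SE 0.45, adjusted p = 0.0116) and rose by 1.69 to the NASH CD11c-positive cells (SE 0.45, adjusted p = 0.0062). Neither call held on slide 1 alone (-1.58 and 1.81, adjusted p = 0.0706 and 0.0937) or on slide 2 alone (-1.14 and 1.39, adjusted p = 0.141 and 0.0899). With normexp both were called, at -0.43 and 0.52. The difference of NASH CD11c-positive from wildtype cells was 0.28 and did not pass (adjusted p = 0.581).

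Rab33b, which serves Golgi traffic and autophagosome formation, fell by 0.34 (SE 0.029, adjusted p = 5.44e-08) in NASH CD11c-negative and by 0.29 in NASH CD11c-positive against wildtype cells. A second Rab33b probe was well above background on 5 wildtype arrays, on 0 NASH CD11c-negative and on 2 NASH CD11c-positive arrays, so its differences are not given. The mean of both probes gave -0.72 and -0.52, but it includes the background values of the second probe, so these sizes are uncertain. Rab33a differed by 0.21 and did not pass in any comparison. Rab19 and Rab43, which are linked to the Golgi, both rose between the NASH sorts. Rab19 rose by 0.61 (SE 0.059, adjusted p = 8.75e-07) and Rab43 by 0.26 (SE 0.045, adjusted p = 1.97e-04) in NASH CD11c-positive against NASH CD11c-negative cells, without overlap for either gene. Rab2b rose by 0.22 in that comparison (adjusted p = 0.03). This call was lost when any of replicates 1, 2 and 3 of NASH CD11c-negative or 3, 4 and 5 of NASH CD11c-positive cells was left out, with differences of 0.17 to 0.22, and without the filter on dim probes. In NASH CD11c-negative against wildtype cells Rab19 differed by -0.13 and did not pass (adjusted p = 0.0509), but 14 of 26 alternatives called it lower. Rab43 differed by 0.05 there and did not pass, but its second probe gave -0.40 and quantile normalization a called fall of -0.33. The first step of Rab43 is thus uncertain. Rab43 rose by 0.31 in NASH CD11c-positive against wildtype cells, where its second probe gave -0.15, the mean of both probes 0.08 (adjusted p = 0.132) and quantile normalization -0.03.

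Of the 7 measured Rab genes of the early endosome, 6 rose in NASH CD11c-negative against wildtype cells (85.7%, beside 48.3% of all genes) and 0 fell, with a median difference of 0.37. With quantile normalization Rab5a and Rab24 fell there. Rab5 proteins drive the fusion of incoming vesicles with the early endosome. Rab5c rose by 0.52 (SE 0.031, adjusted p = 1.11e-09), Rab5b by 0.28 and Rab5a by 0.10 (adjusted p = 0.0317). The Rab5a call was lost when any of wildtype replicates 1, 2 and 3 or NASH CD11c-negative replicates 4 and 5 was left out, with differences of 0.08 to 0.10, and quantile normalization gave -0.15. It was lost too under normexp, without the filter on dim probes and with the mean of its probes. The probes of Rab5b disagreed. The brightest gave 0.28 and the others 0.07, -0.83 and -0.46, and their mean of -0.23 had the opposite sign, so the direction of Rab5b is uncertain.

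Rab31, which works in phagocytosis and between the Golgi and endosomes, rose by 0.45 (SE 0.031, adjusted p = 5.24e-09). Rab22a, a Rab of early and recycling endosomes, rose by 0.43 and Rab21, known from integrin uptake, by 0.37, a call lost on slide 2 alone (0.24, adjusted p = 0.0986), as was that against wildtype in NASH CD11c-positive cells (0.25, adjusted p = 0.072). Rab24, linked to autophagy, differed by 0.01 and did not pass in any comparison. In NASH CD11c-positive against NASH CD11c-negative cells no early endosome gene rose, and Rab31 fell by 0.17 and Rab22a by 0.11. The Rab22a call was lost under normexp (-0.076) and on slide 1 alone (-0.028, adjusted p = 0.574). Both remained above wildtype in the NASH CD11c-positive cells, by 0.28 and 0.33.

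Promoter sequence of the Rab genes was searched for 4 motifs on both strands, over the 250 bases before a RefSeq start (GRCm38.p6). Of the 51 genes, 44 had an entry, which leaves out Rab18, Rab2a, Rab30, Rab37, Rab38, Rab4a and Rab7b. The motif CACGTG, the E-box core of the MiT/TFE factors that drive lysosomal genes, was present in 5 of 44 (11.4%, beside 6.86% of 27025 genes), which were Rab20, Rab21, Rab23, Rab27a and Rab5a. Rab20, Rab21, Rab27a and, with percentile scaling only, Rab5a rose in NASH CD11c-negative against wildtype cells, and Rab23 fell. The longer CLEAR element, which is that core with GT before it and AC after it, was present in 2 of 44 (4.55%, beside 0.27%), Rab21 and Rab5a, both genes of the early endosome. It begins 32 bases before the Rab21 start and 97 bases before the Rab5a start. A match is a description of these letters and not a measured site. The windows of both genes are shown because they carry this element, in capitals, and in Rab5a the second CACGTG is in capitals too. The windows are chr10:115315592-115315841 on the minus strand for Rab21 and chr17:53478984-53479233 on the plus strand for Rab5a.
Rab21: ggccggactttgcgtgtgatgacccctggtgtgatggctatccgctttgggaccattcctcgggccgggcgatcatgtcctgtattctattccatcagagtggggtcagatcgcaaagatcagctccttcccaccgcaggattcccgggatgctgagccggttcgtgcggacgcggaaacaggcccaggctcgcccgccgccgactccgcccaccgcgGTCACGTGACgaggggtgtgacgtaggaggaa
Rab5a: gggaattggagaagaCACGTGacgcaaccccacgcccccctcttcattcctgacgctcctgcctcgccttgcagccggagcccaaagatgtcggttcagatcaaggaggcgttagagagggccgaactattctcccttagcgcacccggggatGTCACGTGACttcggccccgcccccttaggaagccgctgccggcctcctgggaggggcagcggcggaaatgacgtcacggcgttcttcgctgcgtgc

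Of the 8 measured Rab genes of the recycling endosome, 7 rose and 1 fell in both NASH groups against wildtype (87.5% rose, beside 48.3% and 51.4% of all genes). The 7 include Rab15 and Rab17, which were well above background on 1 wildtype array each and passed the filter only through NASH arrays, so the count is not support for a rise of the list. The exception, Rab4a, which returns receptors quickly from the early endosome to the surface, was the Rab gene with the largest difference on the arrays. Its levels on the wildtype arrays were 0.23, 0.26, 0.34, 0.46 and 0.40. On the NASH CD11c-negative arrays they were -2.79, -2.84, -3.12, -2.62 and -2.47, and on the NASH CD11c-positive arrays -3.22, -2.84, -2.92, -2.91 and -3.30. Every wildtype array lay more than 2 log2 units above every NASH array, and both NASH groups overlapped. The difference from wildtype was -3.11 (SE 0.12, an 8.62-fold fall, adjusted p = 5.42e-12) in NASH CD11c-negative and -3.38 (10.4-fold, adjusted p = 1.60e-12) in NASH CD11c-positive cells. With normexp they were -2.09 (4.26-fold) and -2.37 (5.18-fold). A second probe was well above background on 5 wildtype arrays and 0 NASH arrays, so its differences are not given. On slide 1 alone the differences were -3.20 and -3.31, and on slide 2 alone -2.97 and -3.48. Between both NASH sorts Rab4a differed by -0.27 and did not pass (adjusted p = 0.0631), but 7 of 26 alternatives called it lower. Among them were slide as a block (-0.31, adjusted p = 0.0248), normexp (-0.28, adjusted p = 0.0101) and slide 2 alone (-0.50, adjusted p = 0.0254). It also passed without NASH CD11c-negative replicate 3 or NASH CD11c-positive replicate 2 (-0.36 and -0.32).

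Rab4b, the near relative of Rab4a, rose by 0.45 (SE 0.047, adjusted p = 5.77e-07) in NASH CD11c-negative and by 0.38 in NASH CD11c-positive against wildtype cells. Rab11a and Rab11b, the Rab proteins of slow recycling, rose by 0.41 and 0.18 in NASH CD11c-negative cells, Rab14, which works between the Golgi, endosomes and phagosomes, by 0.37, and Rab35, which recycles cargo near the plasma membrane, by 0.37. Under quantile normalization Rab11b gave -0.13 and Rab14 -0.02 in this comparison. Rab11b and Rab14 also rose from NASH CD11c-negative to NASH CD11c-positive cells, by 0.11 and 0.07, with overlap. The Rab11b call was lost on each slide alone. The Rab14 call was lost on slide 2 alone, without the filter on dim probes and without replicate 1, 2 or 3 of NASH CD11c-negative or 1, 2, 3 or 5 of NASH CD11c-positive cells, with differences of 0.06 to 0.07.

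Rab15 and Rab17, known from receptor recycling and from transport across epithelia, were dim. Rab15 levels were -5.13, -3.32, -3.97, -4.49 and -5.65 on the wildtype arrays, only the second of which was well above background. They were -3.29, -3.03, -3.18, -3.56 and -3.31 on the NASH CD11c-negative arrays and -2.95, -3.24, -3.12, -2.95 and -3.29 on the NASH CD11c-positive arrays. The wildtype values were spread widely, and the highest of them lay within the range of the NASH CD11c-negative arrays. The difference from wildtype was 1.24 (SE 0.33, adjusted p = 0.00314) and 1.40 (adjusted p = 0.00121). Because wildtype lay mostly at background, these sizes are uncertain. They moved to 0.31 and 0.23 with normexp background correction, and both calls were lost on slide 1 alone, where the differences were 0.97 and 1.05. Rab17 rose by 0.65 (SE 0.20, adjusted p = 0.00919) and 0.54 (adjusted p = 0.0234), with 1 wildtype array well above background, and both calls were lost on slide 1 alone (0.41 and 0.32), whereas slide 2 alone gave 1.00 and 0.89. Normexp gave 0.28 and 0.046, and the second call was lost. It was also lost without wildtype replicate 3, 4 or 5 or NASH CD11c-positive replicate 2 or 3, with differences of 0.43 to 0.50.

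**Figure D3:**
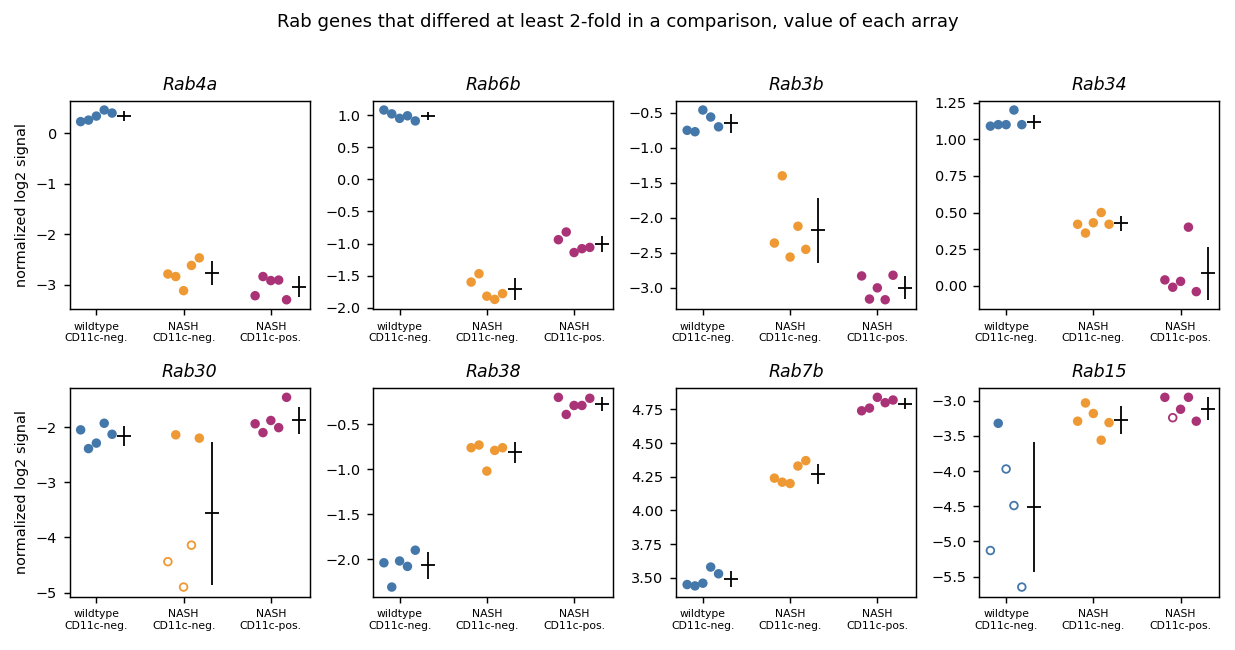
Normalized log2 signal on each array for the 8 Rab genes that changed at least 2-fold in a comparison with the main processing, with the mean and SD of the 5 arrays of a group in black. Open circles were not well above background. Rab4a, Rab6b, Rab3b and Rab34 are highest in wildtype, Rab38 and Rab7b are highest in NASH CD11c-positive cells, and Rab30 and Rab15 hold arrays at background.

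The 8 measured Rab genes of the late endosome, lysosome and phagosome went both ways in NASH CD11c-negative against wildtype cells, with 4 rises (50%, beside 48.3% of all genes), 3 falls (37.5%, beside 28.5%) and 1 that did not pass. Rab7b, which carries cargo from late endosomes to the Golgi and dampens Toll-like receptor signals in macrophages, rose at each step. Its levels were 3.45, 3.44, 3.46, 3.58 and 3.53 on the wildtype arrays, 4.24, 4.21, 4.20, 4.33 and 4.37 on the NASH CD11c-negative arrays and 4.74, 4.76, 4.84, 4.80 and 4.82 on the NASH CD11c-positive arrays. No group overlapped with another. The steps were 0.78 (SE 0.040, adjusted p = 2.03e-10) and 0.52 (SE 0.040, adjusted p = 7.46e-08), and together a difference of 1.30 or 2.46-fold (adjusted p = 4.89e-13). The last difference was 1.30 on slide 1 alone, 1.26 on slide 2 alone and 1.04 with quantile normalization.

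Rab7 itself, which drives the fusion of late endosomes with lysosomes, rose by 0.17 (SE 0.034, adjusted p = 2.63e-04) and again by 0.14 (adjusted p = 0.00245), a step lost on slide 1 alone (0.14, adjusted p = 0.0608). Quantile normalization gave -0.06 for the first of these. Rab9, which returns mannose 6-phosphate receptors to the Golgi, rose by 0.60 (SE 0.044, adjusted p = 1.08e-08) in NASH CD11c-negative cells, and its other probes gave 0.61 and 0.55. Rab20, a Rab of phagosome maturation, rose by 0.54 (SE 0.034, adjusted p = 1.72e-09) and then fell by 0.25 in the NASH CD11c-positive cells (adjusted p = 2.23e-05). Rab12, linked to the degradation of the transferrin receptor, fell by 0.11 in NASH CD11c-positive against wildtype cells and did not pass in the other comparisons. Normexp gave -0.034 for it, without a call, and quantile normalization -0.34.

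Rab34, known from lysosome positioning, macropinocytosis and phagosomes, fell stepwise. Its levels were 1.09, 1.10, 1.10, 1.20 and 1.10 on the wildtype arrays, 0.42, 0.36, 0.43, 0.50 and 0.42 on the NASH CD11c-negative arrays and 0.04, -0.01, 0.03, 0.40 and -0.04 on the NASH CD11c-positive arrays. Wildtype stood apart from both NASH groups, and the fourth NASH CD11c-positive array reached into the NASH CD11c-negative range. The difference was -0.69 (SE 0.068, adjusted p = 2.64e-07) in NASH CD11c-negative against wildtype cells. From there to the NASH CD11c-positive cells it was -0.34 (adjusted p = 6.52e-04), a call lost on slide 2 alone, which holds that array (-0.33, adjusted p = 0.0937). Against wildtype the NASH CD11c-positive cells differed by -1.04 (2.05-fold, adjusted p = 2.53e-09), with -1.08 on slide 1 alone and -1.03 on slide 2 alone. With normexp this difference was -0.88 (1.85-fold), so it did not reach 2-fold there. Rab39, linked to phagosome acidification and autophagy, fell by 0.60 (SE 0.032, adjusted p = 2.97e-10) and by a further 0.32 (adjusted p = 1.03e-06), with no overlap at either step. Rab42 fell by 0.52 in NASH CD11c-negative cells (SE 0.12, adjusted p = 0.00108), with 3 of 5 arrays well above background and -0.14 with normexp.

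The 4 measured Rab genes of lysosome-related organelles were led by Rab38, which with Rab32 builds melanosomes and related organelles. Rab38 levels were -2.04, -2.31, -2.02, -2.08 and -1.90 on the wildtype arrays, -0.76, -0.73, -1.02, -0.79 and -0.76 on the NASH CD11c-negative arrays and -0.20, -0.39, -0.29, -0.29 and -0.21 on the NASH CD11c-positive arrays. The groups did not overlap. Rab38 rose by 1.26 (SE 0.073, 2.39-fold, adjusted p = 7.32e-10) and then by 0.54 (SE 0.073, adjusted p = 2.35e-05), and NASH CD11c-positive cells stood 1.79 above wildtype (3.47-fold, adjusted p = 1.03e-11). The last difference was 1.83 on slide 1 alone, 1.73 on slide 2 alone and 1.21 (2.31-fold) with normexp background correction. A second Rab38 probe was not well above background on any array.

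Rab32, which is also known for limiting bacteria in macrophages, fell by 0.35 (SE 0.032, adjusted p = 1.28e-07) and by a further 0.10 (adjusted p = 0.0173). The second of these calls was lost under quantile normalization (-0.048), under normexp (-0.050) and on slide 2 alone (-0.12, adjusted p = 0.0594). Rab27a, which docks secretory lysosomes at the plasma membrane, rose by 0.16 (adjusted p = 0.00161) in NASH CD11c-negative and by 0.25 in NASH CD11c-positive against wildtype cells. Both calls were lost under normexp (0.077 and 0.12, adjusted p = 0.234 and 0.0726). Rab29, a Rab that recruits the kinase LRRK2, rose by 0.24 (adjusted p = 5.13e-04) and then fell by 0.15 (adjusted p = 0.0206). Quantile normalization turned the first difference to -0.03. The fall was lost without NASH CD11c-negative replicate 4 or 5 or NASH CD11c-positive replicate 1 or 2, with differences of -0.14 to -0.13.

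The 9 measured Rab genes of exocytosis and regulated secretion divided into 4 that rose (44.4%, beside 48.3% of all genes), 3 that fell (33.3%, beside 28.5%) and 2 that did not pass in NASH CD11c-negative against wildtype cells. The Rab3 proteins, which prime secretory vesicles for release, went different ways. Rab3b levels were -0.75, -0.77, -0.46, -0.56 and -0.70 on the wildtype arrays, -2.36, -1.40, -2.56, -2.12 and -2.45 on the NASH CD11c-negative arrays and -2.83, -3.16, -3.00, -3.17 and -2.82 on the NASH CD11c-positive arrays. The groups did not overlap, and the second NASH CD11c-negative array was the highest of its group. The steps were -1.53 (SE 0.18, adjusted p = 1.55e-06) and -0.82 (SE 0.18, adjusted p = 0.00123), and together -2.35 or 5.09-fold (adjusted p = 1.18e-08). The total was -2.33 on slide 1 alone, -2.36 on slide 2 alone and -1.64 (3.13-fold) with normexp, but the second step was not called on slide 1 alone (-0.89, adjusted p = 0.0712).

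Rab3c fell by 0.74 (SE 0.065, adjusted p = 9.41e-08) and Rab3d rose by 0.64 (SE 0.029, adjusted p = 4.19e-11) in NASH CD11c-negative against wildtype cells. A second kept Rab3c probe gave -0.77, but another Rab3c probe was not well above background on any array. The probes of Rab3c thus disagree on its signal. Rab3d then fell by 0.09 (adjusted p = 0.0212), a call lost on each slide alone, under normexp, with the mean of its probes and without NASH CD11c-negative replicate 5 or NASH CD11c-positive replicate 4, with a difference of -0.07 without either. Rab3a differed by -0.03 there and did not pass, and fell by 0.11 from NASH CD11c-negative to NASH CD11c-positive cells, a call lost under normexp (-0.055) and on slide 2 alone. Rab37, known from the granules of mast cells, fell by 0.88 (SE 0.10, adjusted p = 1.90e-06) and stood 0.94 below wildtype in the NASH CD11c-positive cells.

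Rab8a and Rab8b, which deliver vesicles to the plasma membrane, rose by 0.24 and 0.51 in NASH CD11c-negative against wildtype cells (adjusted p = 8.40e-06 and 1.78e-07). A second Rab8a probe gave 0.60 there, and the mean of both Rab8a probes 0.42. Rab8b rose again by 0.27 in the NASH CD11c-positive cells, where Rab8a fell by 0.12, a call lost under normexp (-0.067) and with the mean of its probes (-0.055). Rab10, which brings Toll-like receptor 4 and glucose transporters to the surface, rose by 0.25 (adjusted p = 2.24e-04), and quantile normalization gave -0.05. In NASH CD11c-positive against wildtype cells quantile normalization gave -0.09 for Rab8a, where the percentile scaling gave 0.12, the mean of its probes 0.36 and slide 1 alone 0.087 without a call. Rab13, a Rab of cell junctions, differed by -0.01 and did not pass in any comparison.

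Among the remaining genes, Rab40c, a subunit of a ubiquitin ligase, rose by 0.63 (SE 0.034, adjusted p = 3.57e-10) and Rab28, a Rab of cilia, by 0.30 in NASH CD11c-negative against wildtype cells, and both then fell, by 0.11 and 0.18. The Rab40c fall was lost under normexp (-0.032) and on slide 1 alone (-0.079). Rab23, which restrains Hedgehog signals at the cilium, fell by 0.67 (SE 0.13, adjusted p = 3.48e-04), with 3 of 5 NASH CD11c-negative arrays well above background and -0.16 with normexp. Of the symbol matches that are no GTPase, Rab3ip, the exchange factor Rabin8, rose by 0.13 (adjusted p = 0.0446) and by a further 0.17. Rab5if rose by 0.26 and Rab10os, a noncoding RNA opposite Rab10, fell by 0.44, while the Rab10 gene itself rose.

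Over both steps, the 51 genes took many call patterns, of which the larger and that of Rab6b are given. The commonest, with 16 genes, was a rise from wildtype to NASH CD11c-negative cells and no call between the NASH sorts. In 7 genes a rise was followed by a further rise (Rab6a, Rab7, Rab7b, Rab8b, Rab11b, Rab14 and Rab38), and in 7 a rise was followed by a fall that left the gene above wildtype (Rab3d, Rab8a, Rab20, Rab22a, Rab28, Rab31 and Rab40c). In 6 genes a fall was followed by no call between the NASH sorts (Rab3c, Rab4a, Rab23, Rab33b, Rab37 and Rab42). In 4 genes a fall was followed by a further fall (Rab3b, Rab32, Rab34 and Rab39). Rab6b was the 1 gene that fell, then rose and stayed below wildtype. Rab13, Rab24 and Rab33a were called in none of the comparisons. Several second steps were not called under other settings, as given above, among them those of Rab3d, Rab6a, Rab11b, Rab14 and Rab32. That of Rab4a was called in 7 of 26 alternatives. Under quantile normalization all 12 first falls but only 19 of the 31 first rises were kept. In the commonest pattern Rab1a, Rab5a, Rab10 and Rab18 turned negative, and Rab1b, Rab5b, Rab11a and Rab35 lost the call. Among genes with a further rise, Rab7, Rab11b and Rab14 turned negative at the first step. The share of these patterns over all genes was not computed. Of all genes, 76.8% were called at the first step and 53.1% at the second, so nothing particular to Rab genes is read from the patterns.

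The promoters of the 4 genes that fell at both steps are shown because these genes share a call pattern. Of the motifs searched, the AP-1 motif TGANTCA was present in 2 of 44 Rab genes (4.55%, beside 7.82% of all genes), Rab15 and Rab34. GAGGAAGT, bound by the macrophage factor PU.1, was present in 2 of 44 (4.55%, beside 2.79%), Rab2b and Rab32. Capitals mark TGAGTCA in Rab34 and GAGGAAGT in Rab32, which begin 58 and 43 bases before the start. None of the 4 motifs was found in the windows of Rab3b and Rab39, which says only that these letters are not in them. The windows are chr4:108878820-108879069 (plus strand) for Rab3b, chr10:10558208-10558457 (minus strand) for Rab32, chr11:78188177-78188426 (plus strand) for the first of 2 Rab34 starts and chr9:53706233-53706482 (minus strand) for Rab39.
Rab3b: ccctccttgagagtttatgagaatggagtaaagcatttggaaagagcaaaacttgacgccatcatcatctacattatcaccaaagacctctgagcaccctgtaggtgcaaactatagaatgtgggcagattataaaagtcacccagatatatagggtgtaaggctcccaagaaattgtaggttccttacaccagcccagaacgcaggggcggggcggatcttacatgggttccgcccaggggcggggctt
Rab32: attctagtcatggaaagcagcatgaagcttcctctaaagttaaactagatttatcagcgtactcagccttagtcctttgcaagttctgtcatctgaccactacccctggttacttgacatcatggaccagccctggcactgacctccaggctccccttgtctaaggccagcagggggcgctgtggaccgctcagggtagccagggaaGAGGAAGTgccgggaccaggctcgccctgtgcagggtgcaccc
Rab34: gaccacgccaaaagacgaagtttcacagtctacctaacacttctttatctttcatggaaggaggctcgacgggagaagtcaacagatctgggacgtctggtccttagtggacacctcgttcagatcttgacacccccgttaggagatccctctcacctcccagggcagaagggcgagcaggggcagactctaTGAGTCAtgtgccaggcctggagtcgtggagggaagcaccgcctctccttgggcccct
Rab39: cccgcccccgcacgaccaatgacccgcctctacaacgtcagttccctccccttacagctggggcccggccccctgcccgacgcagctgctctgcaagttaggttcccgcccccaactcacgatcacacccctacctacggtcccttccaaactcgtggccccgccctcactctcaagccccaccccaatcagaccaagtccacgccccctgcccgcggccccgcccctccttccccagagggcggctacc

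Related Rab genes were also compared with each other on the same array. The log2 ratio of both genes was taken on each array for 18 pairs, namely all pairs that share a number and the pair of Rab32 and Rab38, a choice made after the values had been seen. A ratio within an array does not depend on a factor that scales the whole array. Quantile normalization is not such a factor. The ratios were taken with the main processing alone, so their dependence on the alternatives was not tested. Each of the 54 changes of ratio was tested with a two-sided exact permutation test of 5 against 5 arrays, whose smallest p is 0.00794, with Benjamini-Hochberg adjustment over the 54. At an adjusted p under 0.05, the ratio changed for 17 of 18 pairs in NASH CD11c-negative against wildtype cells, for 11 of 18 between the NASH sorts and for 14 of 18 in NASH CD11c-positive against wildtype cells. No share of changed ratios over other gene pairs was computed, and 76.8%, 53.1% and 77.6% of all genes changed in these comparisons, so nothing particular to related Rab genes is read from these counts. A change of ratio shows unequal change and not that either gene stayed the same.

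In NASH CD11c-negative against wildtype cells the ratio of Rab4a to Rab4b changed by -3.55, the ratio of Rab6a to Rab6b by 3.14, that of Rab3b to Rab3d by -2.17 and that of Rab32 to Rab38 by -1.61. In each of these pairs no array of either group overlapped with the other group (exact permutation p = 0.00794, adjusted p = 0.0126). Both genes of each pair were already called in opposite directions there, so the p-values restate the single-gene calls and add no support to them. The ratio of Rab7 to Rab7b changed by -0.60 there and by a further -0.38 to the NASH CD11c-positive cells, and that of Rab8a to Rab8b by -0.27 and -0.39, again without overlap (exact permutation p = 0.00794 each). A second Rab8a probe rose by 0.60 in NASH CD11c-negative against wildtype cells, beside 0.51 for Rab8b. The first change of the Rab8a to Rab8b ratio thus depends on the probe and is uncertain. The ratio of Rab4a to Rab4b changed by -0.20 between the NASH sorts and did not pass (exact permutation p = 0.167). Rab1a and Rab1b were the pair whose ratio did not pass in any comparison, with changes of -0.04, 0.02 and -0.02.

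**Figure D4:**
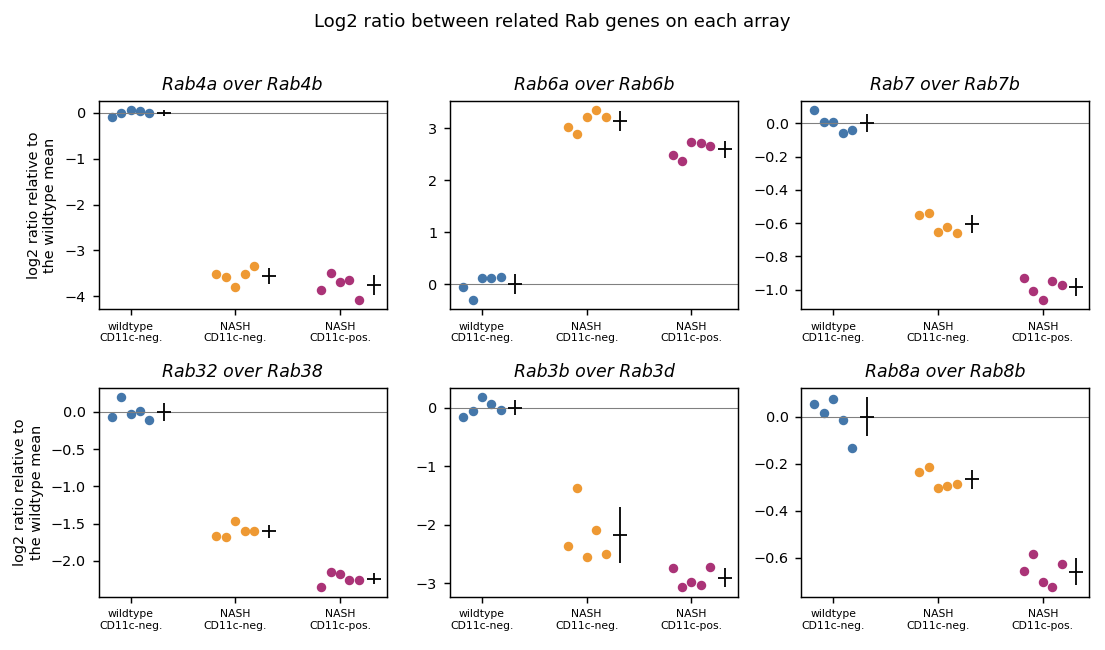
Log2 ratio between related Rab genes on each array, relative to the mean ratio of the 5 wildtype arrays, for 6 pairs in the 3 groups, with the mean and SD of each group in black. In all 6 pairs the wildtype arrays stand apart from both NASH groups, and Rab4a over Rab4b (-3.55 in NASH CD11c-negative cells) is the pair that moved most. Each gene is read from its brightest kept probe, and the first change of Rab8a over Rab8b depends on the probe.

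Genes that regulate Rab proteins are set beside the shares of all genes that rose and fell, which were 48.3% and 28.5% in NASH CD11c-negative against wildtype cells, 29.9% and 23.2% between the NASH sorts and 51.4% and 26.3% in NASH CD11c-positive against wildtype cells. Of 10 genes of prenylation and membrane cycling, 7 rose (70.0%) and 1 fell (10%) in the first of these comparisons. These regulator lists, like the marker lists, were counted with the main processing alone, so their dependence on the scaling was not tested. Rabggtb, a subunit of the enzyme that prenylates Rab proteins, rose by 0.55 (SE 0.043, adjusted p = 2.11e-08). Of 39 exchange factors, 13 rose (33.3%) and 16 fell (41.0%) there, with a median of -0.07. The exchange factor homologue Als2cl fell by 1.77 (SE 0.073, adjusted p = 1.58e-11), Sh3bp5, an exchange factor of Rab11, by 1.29 and Dennd3 by 1.03, and Rab3il1, an exchange factor of Rab8, rose by 1.16 (adjusted p = 5.14e-14). From NASH CD11c-negative to NASH CD11c-positive cells 19 exchange factors rose (48.7%) and 4 fell (10.3%), and in NASH CD11c-positive against wildtype cells 19 rose and 12 fell (30.8%).

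Of 35 GTPase-activating proteins, 10 rose (28.6%) and 14 fell (40.0%) in NASH CD11c-negative against wildtype cells, and 11 rose (31.4%) and 5 fell (14.3%) between the NASH sorts. Tbc1d4, the AS160 protein that acts on Rab10 and its relatives, fell by 1.99 (SE 0.058, adjusted p = 3.72e-13) and then rose by 2.27 (adjusted p = 3.91e-13), which left it 0.28 above wildtype. Tbc1d10c moved the same way, with -1.09 and then 0.72. Tbc1d2, which acts on Rab7, rose by 1.66 (SE 0.29, adjusted p = 1.19e-04). Most markers of conventional dendritic cells, natural killer cells and T cells also fell and then rose, and the part of these cells in the values of Tbc1d4 and Tbc1d10c was not tested.

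Of 21 effectors of early and recycling endosomes, 6 rose and 6 fell (28.6% each) in NASH CD11c-negative against wildtype cells, and 10 rose (47.6%) and 2 fell (9.52%) between the NASH sorts. Rab11fip5, an effector of Rab11, rose by 1.19 (SE 0.037, adjusted p = 6.29e-13), and Ehd4, a membrane-shaping ATPase of endosomes, by 1.05 (adjusted p = 1.15e-12). Of 20 effectors of late endosomes and lysosomes, 7 rose and 7 fell (35.0% each) in NASH CD11c-negative against wildtype cells, and 12 rose (60.0%, beside 29.9% of all genes) and 0 fell from NASH CD11c-negative to NASH CD11c-positive cells. In this list Rilpl2, a relative of the Rab7 effector RILP, rose by 0.98 and Fyco1, which links Rab7 to kinesin, fell by 0.92 in NASH CD11c-negative against wildtype cells.

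Of 16 secretory effectors, 5 rose (31.2%, beside 48.3% of all genes) and 9 fell (56.2%, beside 28.5%) in NASH CD11c-negative against wildtype cells. Myo5a, the motor that carries Rab27a vesicles, rose by 1.86 (SE 0.048, adjusted p = 9.24e-14) and stood 2.53 above wildtype in the NASH CD11c-positive cells. Mical1, a Rab effector that oxidises actin, stood 1.02 above wildtype in those cells, and Micall2, an effector of Rab8 and Rab13, 1.70 below it (adjusted p = 4.01e-13). Rims1, an effector of Rab3, stood 1.39 below it. Of 11 Golgi effectors, 4 rose and 4 fell (36.4% each) in NASH CD11c-negative against wildtype cells and 6 rose (54.5%, beside 29.9%) and 0 fell between the NASH sorts. Kif20a, a mitotic kinesin that binds Rab6, stood 1.09 above wildtype in the NASH CD11c-positive cells. Of 5 Rab-like GTPases, 2 rose in NASH CD11c-negative against wildtype cells, Ift22 by 0.75 and Ift27 by 0.16, both of which are subunits of the transport complex of cilia.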

How the data were processed

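RNA of sorted macrophages from mouse liver was hybridised to 15 Agilent one-colour arrays. The authors' scanner files give for each spot an intensity, the processed signal. Per the file headers it comes from Agilent Feature Extraction 10.7.3.1 with detrending, and it is not scaled from array to array. The deposited value table holds log2 values of unstated scale and centring. Set against the scanner values, they equalled log2 processed signal less the array's 75th percentile and less each probe's wildtype median (median absolute difference 0.00146). Their column medians ran from -0.204 to 0.408.

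Left out were 3671 control spots of 62976 and between 113 and 190 outlier spots on each array. Saturated spots numbered 0. After log2, spots of a probe were averaged and the array's 75th percentile (358.6 to 562.4 intensity units) was subtracted. RefSeq accessions (table of GRCm38.p6, for names) gave a gene to 26582 of 55681 probes. A probe needed a signal well above background on 4 or more of the 5 arrays in any group, and a gene was read from its brightest kept probe. One limma fit (version 3.58.1, in R 4.3.3) of group means without covariates, tested on simulated data, served the 3 comparisons, with a 2-sided test. Precision is limited by the number of arrays. Ratios of related genes were tested with scipy 1.17.1.

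The members, the lists of roles, regulators and cell type markers, and the tests were chosen with earlier results of these data known. Every measured member is named under its role. Values on each array are given for members that passed with a change of at least 2-fold in any comparison. Of a regulator list, up to 4 members that passed with at least 2-fold are named, otherwise the largest change in each direction. A gene that this rule names is not reported here, although the counts include it. Of a marker list, the counts and at most 2 genes are given.

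The alternatives tried were normexp (offset 50, run on the median signal and its local background, as no mean signal was used here), quantile normalization, dropping the filter or requiring all 15 arrays, blocks for slide and for replicate number, single slides, averaging a gene's kept probes, the deposited log2 values, and leaving out arrays one by one. Promoter windows are RefSeq's (GRCm38.p6). Protein sequences were not used here.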

Additional observations from a re-analysis of the deposited data

Results flagged for a closer look

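Each Rab gene was examined in each group of 5 arrays for an array that stood apart from the other 4 (its gap to the nearest of them over 0.71 of the group's range, Dixon's critical value). This gave 11 of 153 groups, and chance marks about 1 in 20. In wildtype, replicate 2 was the low array for 4 genes. It measured 2.95 for Rab11a, where the next value was 3.48, and 1.64 for Rab2a, where the next was 2.13. It also measured 2.88 for Rab6a and 1.52 for Rab33b. Without it the Rab genes counted 30 rises and 13 falls in NASH CD11c-negative against wildtype cells.

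Wildtype replicate 4 was high for Rab34, at 1.20. In NASH CD11c-negative cells, replicate 3 was low for Rab33b (1.22) and Rab38 (-1.02), and replicate 5 was high for Rab5b (3.81). In NASH CD11c-positive cells, replicate 4 was low for Rab14 (5.62) and high for Rab34 (0.40, where the next value was 0.04), and replicate 2 was low for Rab12 (2.60). The cause of these values was not tested.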

How the results depend on the processing

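Over the alternatives other than quantile normalization, the counts of Rab genes that rose or fell stayed within 1.5 times their main value in all 3 comparisons. Quantile normalization moved the rises from 31 to 19 and the falls from 12 to 22 in NASH CD11c-negative against wildtype cells, and the rises from 32 to 19 in NASH CD11c-positive against wildtype cells. Leaving out each array in turn gave 30 to 31 rises and 12 to 15 falls, 9 to 12 rises and 11 to 14 falls, and 31 to 32 rises and 13 falls, in the order NASH CD11c-negative against wildtype, NASH CD11c-positive against NASH CD11c-negative and NASH CD11c-positive against wildtype. Among genes called with the main processing or with the alternative, the sign turned under quantile normalization in the first of these for Rab10 (-0.049), Rab11b (-0.13), Rab14 (-0.023), Rab18 (-0.092), Rab1a (-0.028), Rab24 (-0.24), Rab29 (-0.030), Rab43 (-0.33), Rab5a (-0.15) and Rab7 (-0.056). In the last it turned among such genes for Rab10 (-0.092), Rab11b (-0.0041), Rab18 (-0.085), Rab29 (-0.18), Rab43 (-0.026), Rab5a (-0.12), Rab5b (-0.050) and Rab8a (-0.090). The mean of a gene's probes turned Rab43 (-0.18) and Rab5b (-0.23) in the first and Rab5b (-0.37) in the last, and normexp background correction turned, among such genes, Rab23 (-0.24) between the NASH sorts. Genes called in neither setting are not listed. The cause was not tested. The labels do not say whether replicate numbers pair the samples. Same-numbered arrays on the same slide had correlations of their deviations from 0.058 to 0.37. Those on different slides, all of replicate 3, had -0.17 and -0.20. Because the values differ with the slide, they cannot decide whether the numbers pair samples. With the replicate block the counts were 31 rises and 15 falls, 12 and 13, and 33 and 13, in the same order. Signal near background limits Rab15, Rab17, Rab23, Rab30 and Rab42.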
